A study of Mus musculus with 18 samples.

Results

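Long-term haematopoietic stem cells (LT-HSCs) cultured for 48 h at pH 6.9 were compared with LT-HSCs cultured for 48 h at pH 7.4, in the libraries that carried the first index 705 (pH 6.9) or 707 (pH 7.4). The first index is the leading number of each library's title, and it alone chose the libraries. This gave 6 of the 18 libraries of the series, 3 at each pH, from the mice numbered 1, 3 and 5. The pH and the first index change together here, so what each contributes to a difference cannot be told apart. Each library held 100 sorted LT-HSCs from bone marrow of mice aged 8 to 12 weeks, whose strain is named B6.SJL in one field and c57 B6 WT in another. Both groups were wild type and shared the medium (IMDM with 10% serum, stem cell factor, G-CSF and thrombopoietin, the cytokines at 50 ng/ml), the temperature of 37 °C, 5% CO2 and 3% oxygen. The medium of the pH 6.9 group had been calibrated to that pH. The other libraries were 6 of fresh cells (first indices 701 and 702) and 6 cultured for 48 h from mice 2, 4 and 6, at pH 6.9 (index 706) and at pH 7.4 (index 708). The series asked how pH acts on stem cells and on their polyamines.

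LT-HSCs sit at the top of blood formation, divide rarely and make protein slowly, and culture with cytokines pushes them into the cell cycle. Polyamines are small positively charged molecules: ornithine decarboxylase makes putrescine, spermidine synthase turns it into spermidine, and spermidine supplies the side chain of hypusine, a modified amino acid that the translation factor eIF5A needs. Genes of mitosis are switched on together late in the cycle, many of them through promoters with CCAAT boxes and a short element, TTTGAA or TTCGAA, called the cell cycle homology region.

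The 3 libraries at pH 6.9 had total counts of 1689227 (replicate 1), 1788519 (replicate 3) and 7508120 (replicate 5), and those at pH 7.4 had 1923443, 6957557 and 2561167 (replicates 1, 3 and 5). Replicate 3 at pH 6.9 stood apart: 8925 genes were detected in it, against 11225 and 12125 in the other libraries at pH 6.9 and 11250 to 12243 at pH 7.4. Its 20 highest genes took 14.2% of counts, against 10.3% and 9.02% in the other pH 6.9 libraries and 7.7% to 10.1% at pH 7.4. The tests below therefore use replicates 1 and 5 at pH 6.9 against the 3 libraries at pH 7.4, within a fit of 15 libraries. Values with replicate 3 come from a fit of 16 libraries. Levels are counts per 1000000 (CPM) after TMM scaling, and the factor of 0.617 for replicate 3 raises its CPM values as a whole. Markers of LT-HSCs were present in all 6 libraries, with summed levels of 1744, 1251 and 2313 CPM at pH 6.9 (replicates 1, 5 and 3) and 1335 to 1831 CPM at pH 7.4. In bulk libraries of this kind, fewer cells of a type and less RNA per cell cannot be told apart.

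Of 11226 genes tested, 1187 (10.6%) passed an adjusted p of 0.05 in edgeR's quasi-likelihood test. At pH 6.9, 554 genes (4.93%) were higher and 633 (5.64%) were lower, and 792 of the 1187 had changed by more than 1 on the log2 scale. The libraries of the groups did not overlap for 1175 of the 1187 genes, against 37.8% of all genes tested. With replicate 3 included, 849 of 11169 genes (7.6%) passed, 487 higher (4.36%) and 362 lower (3.24%), and 702 genes passed in the same direction both ways. The median log2 fold change over all genes was -0.08 with 15 libraries and -0.17 with 16. The spread between replicates, as the biological coefficient of variation, was 0.353 with 15 libraries and 0.473 with 16. In a fit of all 18 libraries 58 genes passed, and in a fit of only the 3 libraries of each group 0 passed. Leaving out replicate 1 or 5 at pH 6.9 gave 473 and 569 genes, and leaving out replicate 1, 3 or 5 at pH 7.4 gave 627, 866 and 1336, and the mouse number as a block gave 785. Where replicate 1 or 5 at pH 6.9 was left out, the lone library was assumed to vary like the other groups. Of the 97 genes described below, 78 passed. Of these, 53 passed in each of the 5 fits that left out a library, 74 with the mouse number as a block and 66 with replicate 3, and the calls that were lost are named beside the gene.

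Many genes of the machinery that makes ribosomes were higher at pH 6.9. In the list of ribosome biogenesis factors 27 of 80 genes tested were higher and none was lower, with a median log2 fold change of 0.61. Among cytosolic ribosomal proteins 36 of 82 were higher and none was lower (median 0.88), and among mitochondrial ribosomal proteins 28 of 79 were higher and none was lower (median 0.68). These shares of 33.8%, 43.9% and 35.4% compare with 4.93% of all genes. The summed level of the 82 cytosolic ribosomal proteins was 62060 and 66550 CPM in replicates 1 and 5 at pH 6.9 and 78200 CPM in replicate 3, against 31850, 41210 and 40470 CPM at pH 7.4, so that the groups did not overlap.

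Nucleophosmin, Npm1, which assists ribosome assembly in the nucleolus, had 1954 and 2153 CPM in replicates 1 and 5 at pH 6.9 and 5007 CPM in replicate 3, against 688, 926 and 715 CPM at pH 7.4. Every pH 6.9 library lay above every pH 7.4 library, and the log2 fold change was 1.40 ± 0.22 (SE; adjusted p = 0.000935). Nhp2, a core protein of the particles that guide pseudouridine formation in ribosomal RNA, had 839.8 and 887 CPM in those replicates at pH 6.9 and 1488 CPM in replicate 3, against 299, 337 and 346 CPM at pH 7.4 (log2 fold change 1.40 ± 0.21, adjusted p = 0.000805). Nip7, a factor of large-subunit assembly, averaged 302 ± 8.21 CPM at pH 6.9 and 121 ± 6.51 CPM at pH 7.4 (SD, n = 2 and 3), and replicate 3 had 539 CPM. Nucleolin, Ncl, was higher by 1.06 on the log2 scale, or 1.60 with replicate 3. Of ribosomal protein genes, Rpl29 was higher by 1.16 and Rpl7 by 0.95, and of the mitochondrial ones Mrpl12 by 1.22 and Mrpl20 by 1.18. With replicate 3 these were 1.14, 1.41, 1.27 and 1.36, and all 4 passed. Ribosomal protein genes have many near-identical processed copies in the genome, so the counts of single ones are uncertain.

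Translation factors went the same way in 15 of 45 genes, with 1 lower and a median of 0.48. Eef1d, a subunit of the factor that recharges elongation factor 1, had 597 and 674 CPM in replicates 1 and 5 at pH 6.9 and 1564 CPM in replicate 3, against 235, 264 and 273 CPM at pH 7.4 (log2 fold change 1.30). Eif4a1, the helicase of cap-dependent initiation, had 2396 and 2299 CPM at pH 6.9, against 1160, 1200 and 1010 CPM at pH 7.4, but 818 CPM in replicate 3, below all of them, and with that library the call was lost (adjusted p = 0.181). The gene that was lower was Eef2k, the kinase that slows elongation by phosphorylating elongation factor 2, with 53.58 and 36.93 CPM at pH 6.9 and 0.906 CPM in replicate 3, against 134, 96.8 and 89.3 CPM at pH 7.4 (log2 fold change -1.25 ± 0.32). It was not past the threshold without pH 6.9 replicate 5 (adjusted p = 0.168), when pH 7.4 replicate 1 was omitted (0.0665) or with replicate 3 (0.0947).

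The sizes of these lists' counts depended on single libraries while their direction did not. For ribosome biogenesis 17, 11 and 18 genes were higher without pH 6.9 replicate 1, pH 6.9 replicate 5 and pH 7.4 replicate 1, 17 with the mouse number as a block, and 23 with replicate 3. For cytosolic ribosomal proteins the same 3 omissions gave 11, 8 and 10, the block 47 and replicate 3 gave 26. For mitochondrial ribosomal proteins the omissions gave 8, 8 and 8 (17 without pH 7.4 replicate 3), the block 16 and replicate 3 gave 34. For translation factors they gave 7, 6 and 9 higher, the block 10 and replicate 3 gave 11. No gene of the 3 ribosome lists was lower in any of these fits.

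**Figure D1:**
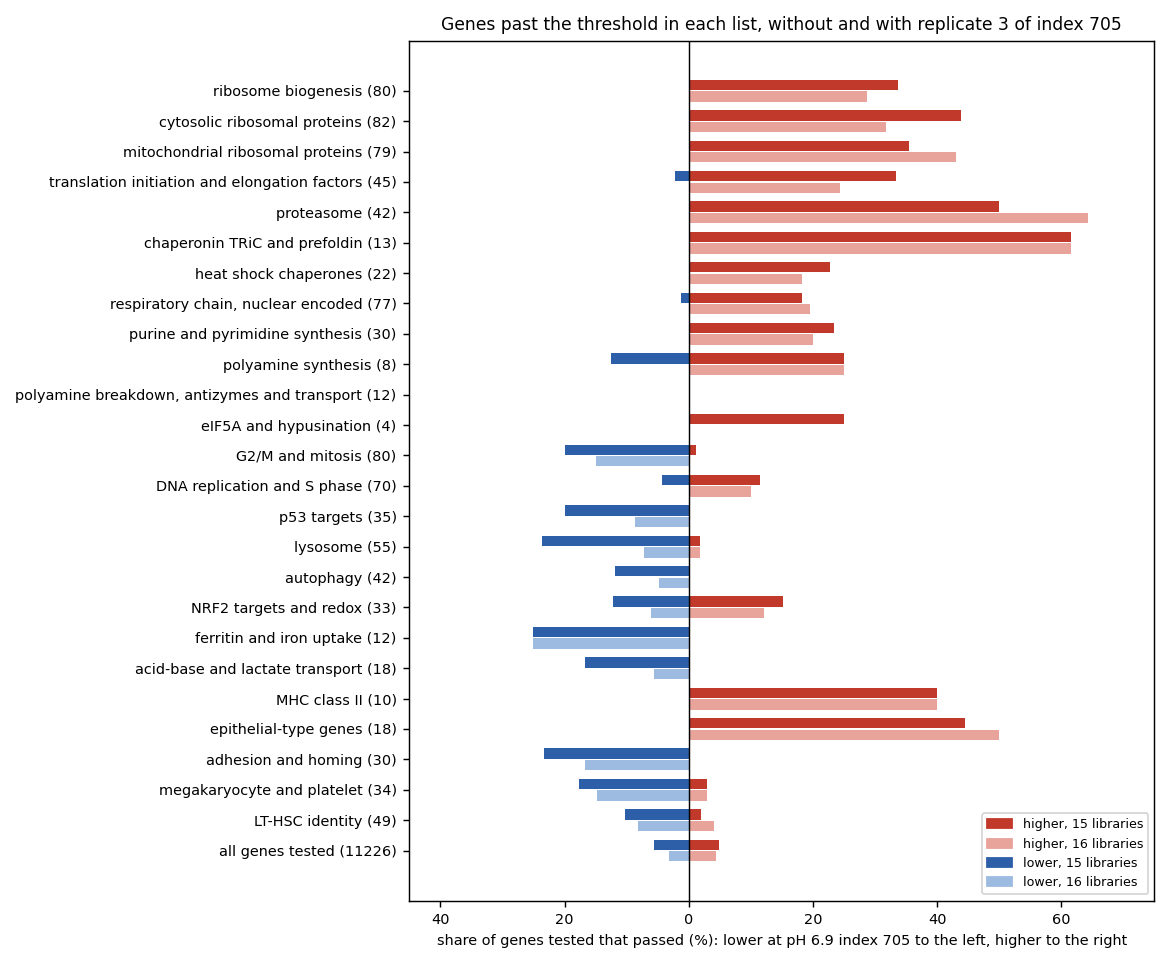
Share of the genes tested in each list that passed the threshold at pH 6.9 index 705 against pH 7.4 index 707, lower to the left (blue) and higher to the right (red), with the number tested in brackets. Dark bars are the fit of 15 libraries and pale bars the fit of 16 with replicate 3, and the bottom row gives all genes, 4.93% higher and 5.64% lower with 15 libraries.

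The proteasome, which degrades tagged proteins, was higher in 21 of 42 genes tested, or 50%, with none lower and a median log2 fold change of 0.65. Its summed level was 22420 and 21220 CPM in replicates 1 and 5 at pH 6.9 and 56020 CPM in replicate 3, against 12130, 13170 and 16390 CPM at pH 7.4. Psmc5, an ATPase of the regulatory cap, had 643 and 514 CPM in replicates 1 and 5 at pH 6.9, against 270.5, 224 and 314 CPM at pH 7.4 (log2 fold change 1.10 ± 0.19, adjusted p = 0.00189). Psmb7, which holds the trypsin-like activity of the core, was higher by 0.98 and Psmd6, a lid subunit, by 0.87. Replicate 3 had higher levels still, 1557 CPM of Psmc5, 519 CPM of Psmb7 and 1768 CPM of Psmd6, and with it the log2 fold changes were 1.71, 1.57 and 1.80. The count of 21 became 5 and 11 without replicate 1 or 5 at pH 6.9, 8 and 10 without replicate 1 or 3 at pH 7.4, 11 with the block and 27 with replicate 3.

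Some genes of protein folding were higher as well. The chaperonin TRiC and prefoldin, which fold actin and tubulin, had 8 of 13 genes higher and none lower (median 0.63), and heat shock chaperones had 5 of 22 higher and none lower (median 0.36). Cct5, a TRiC subunit, had 1853 and 1777 CPM in replicates 1 and 5 at pH 6.9 and 4887 CPM in replicate 3, against 910.1, 949.7 and 1116 CPM at pH 7.4 (log2 fold change 0.87, or 1.48 with replicate 3). Hspe1, the lid of the mitochondrial chaperonin, was higher by 1.58, or 1.78 with replicate 3, but not past the threshold without pH 6.9 replicate 5 (adjusted p = 0.0549). The TRiC count was 4, 2 and 4 without pH 6.9 replicate 1, pH 6.9 replicate 5 and pH 7.4 replicate 1, 5 without pH 7.4 replicate 3, 4 with the block and 8 with replicate 3 at pH 6.9. The heat shock count was 3, 2, 3 and 3 in the same omissions, 3 with the block and 4 with replicate 3 at pH 6.9.

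In mitochondria, 14 of 77 nuclear-encoded respiratory chain genes were higher and 1 was lower, with a median of 0.63, and 74 of the 77 fold changes were positive. Cytochrome c, Cycs, had 383 and 412 CPM in replicates 1 and 5 at pH 6.9 and 1017 CPM in replicate 3, against 142, 176 and 214 CPM at pH 7.4 (log2 fold change 1.16 ± 0.24, adjusted p = 0.00543). Malate dehydrogenase, Mdh2, was higher by 0.92, or 1.08 with replicate 3. Hsd17b10, a mitochondrial dehydrogenase that is also part of the enzyme that trims mitochondrial tRNA, averaged 679 ± 49.6 CPM at pH 6.9 and 194 ± 56 CPM at pH 7.4 (SD, n = 2 and 3), a log2 fold change of 1.81 ± 0.23 (adjusted p = 0.000365), and replicate 3 had 965 CPM. The respiratory chain count was 3, 3 and 1 without pH 6.9 replicate 1, pH 6.9 replicate 5 and pH 7.4 replicate 1, and 7 without pH 7.4 replicate 3. With replicate 3 at pH 6.9, 15 were higher and none was lower. Genes of the mitochondrial genome were not analysed here.

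Of the enzymes of purine and pyrimidine synthesis, 7 of 30 were higher and none was lower (median 0.32), and 4 were higher without pH 6.9 replicate 1 and 6 with replicate 3. Aprt, which salvages adenine, had 357 and 297 CPM in replicates 1 and 5 at pH 6.9 and 261 CPM in replicate 3, against 114, 127 and 126 CPM at pH 7.4 (log2 fold change 1.41 ± 0.19, adjusted p = 0.000396). Nme1, a nucleoside diphosphate kinase, was higher by 1.22, or 1.55 with replicate 3. Ppa1, the cytosolic pyrophosphatase, was higher by 1.60, and by 2.18 with replicate 3, which had 2549 CPM.

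Genes of mitosis that passed went the other way. Of 80 genes of the G2 phase and mitosis, 16 were lower at pH 6.9 (20%, against 5.64% of all genes) and 1 was higher, with a median log2 fold change of -0.85. Promoters of 5 lower genes were chosen by the smallest p among those at hand, with 1 chromosome left out. They are shown since many mitosis promoters share CCAAT boxes and the cell cycle homology region. Each runs from 100 bases before the RefSeq start to 30 after it, read on the gene's strand in GRCm38.p6. Capitals mark CCAAT and TTTGAA or their reverse complements ATTGG and TTCAAA.
Ccnb2, chr9:70421525-70421654, minus strand: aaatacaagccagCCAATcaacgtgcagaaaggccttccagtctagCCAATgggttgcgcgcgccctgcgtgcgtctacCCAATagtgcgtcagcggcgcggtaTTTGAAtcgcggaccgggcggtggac
Cenpa, chr5:30666786-30666915, plus strand: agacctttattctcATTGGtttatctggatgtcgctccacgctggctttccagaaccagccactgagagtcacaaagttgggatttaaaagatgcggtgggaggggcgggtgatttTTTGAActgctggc
Nusap1, chr2:119618198-119618327, plus strand: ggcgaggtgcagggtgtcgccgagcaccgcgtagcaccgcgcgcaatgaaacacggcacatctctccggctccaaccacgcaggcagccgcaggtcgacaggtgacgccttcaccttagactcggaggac
Plk1, chr7:122159335-122159464, plus strand: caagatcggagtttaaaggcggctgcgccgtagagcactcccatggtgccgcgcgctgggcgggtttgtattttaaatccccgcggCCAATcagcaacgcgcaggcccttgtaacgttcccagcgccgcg
Kif22, chr7:127042391-127042520, minus strand: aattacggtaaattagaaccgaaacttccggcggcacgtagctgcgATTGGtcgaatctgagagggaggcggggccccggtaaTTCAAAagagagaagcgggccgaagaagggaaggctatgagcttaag
Ccnb2 has 3 CCAAT boxes, which begin 87, 54 and 21 bases before the start, and TTTGAA at position 5. Cenpa has a reversed CCAAT box at position -86 and TTTGAA at 17, Kif22 has both reversed at -54 and -17, and Plk1 has CCAAT at -14. None of these letters stands in the printed stretch of Nusap1.

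Over the whole windows, from 250 bases before the start to 50 after it and on both strands, TTTGAA or TTCGAA stood in 11 of the 15 lower mitosis genes with a promoter (73.3%) and in 35 of the 51 that did not pass (68.6%). It stood in 14.2% of 9102 promoters of genes tested and in 19.4% of all 27025. Both an element of this kind and CCAAT were in 73.3% of the lower mitosis genes, 29 of the 51 that did not pass and 6.17% of genes tested. The elements were therefore about as common in the mitosis genes that did not pass as in those that did. The element CACGTG, which MYC binds, was in 19.2% of the 26 higher ribosome biogenesis promoters, 21.7% of the 46 that did not pass and 10.5% of promoters of genes tested.

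Ccnb2, cyclin B2, a partner of the mitotic kinase, had 16.2 and 51.4 CPM in replicates 1 and 5 at pH 6.9 and 177 CPM in replicate 3, against 424, 437 and 343 CPM at pH 7.4. The pH 6.9 libraries lay below every pH 7.4 library and spread widely among themselves, and the log2 fold change was -3.48 ± 0.36 (adjusted p = 7.77e-05). It was -4.63 without pH 6.9 replicate 5 and -2.36 with replicate 3. Cenpa, the histone that marks centromeres, had 8.1 and 42 CPM at pH 6.9 and 94.3 CPM in replicate 3, against 174, 212 and 174 CPM at pH 7.4 (log2 fold change -2.76 ± 0.39, adjusted p = 0.000805). Its change was -2.15 and -4.53 without replicates 1 and 5 at pH 6.9, and -2.02 with replicate 3. Fresh cells with indices 701 and 702 averaged 427 and 191 CPM of Ccnb2.

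Nusap1, which binds spindle microtubules, had 36.8 and 52 CPM in replicates 1 and 5 at pH 6.9, against 234, 240.2 and 94 CPM at pH 7.4, but 151 CPM in replicate 3, within the range of pH 7.4. Its call was lost with that library (adjusted p = 0.0849), and its log2 fold change was -2.07 without it and -1.30 with it. Plk1, the polo-like kinase of mitotic entry, had 17.44 and 37.07 CPM at pH 6.9 and 3.63 CPM in replicate 3, against 134, 125 and 54.2 CPM at pH 7.4. Its log2 fold change was -1.87 ± 0.40, and -2.58 without pH 6.9 replicate 5. Without pH 6.9 replicate 1 the calls of Plk1, of Kif22, a chromosome-bound kinesin (-1.43), and of Prc1, which bundles the central spindle (-1.84), were lost (adjusted p = 0.0801, 0.0908 and 0.0908), and with replicate 3 the 3 genes passed. The gene that was higher, Tubb5, a beta tubulin, had 751 and 968 CPM in replicates 1 and 5 at pH 6.9, against 517, 591 and 348 CPM at pH 7.4, and 255 CPM in replicate 3. Its adjusted p was 0.193 without pH 6.9 replicate 5, 0.0537 and 0.0622 without replicate 1 or 5 at pH 7.4, and 0.494 with replicate 3.

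Other genes of proliferation did not pass with or without replicate 3. Mki67, the nuclear marker of cycling cells, had 104 and 135 CPM in replicates 1 and 5 at pH 6.9 and 216 CPM in replicate 3, against 238, 191 and 94.4 CPM at pH 7.4, and the ranges overlap. Cdk1, the mitotic kinase, had 134 and 272 CPM at pH 6.9, against 242, 267 and 152 CPM at pH 7.4, but 782 CPM in replicate 3, above every pH 7.4 library. Its log2 fold change was -0.11, and 0.80 with that library. Top2a, a topoisomerase, had 134 and 217 CPM at pH 6.9 and 156 CPM in replicate 3, against 414, 374 and 110 CPM at pH 7.4. Ccnb1, cyclin B1, had 17.44 and 173.2 CPM in replicates 1 and 5 at pH 6.9, against 398, 495 and 199.6 CPM at pH 7.4 (log2 fold change -1.88 ± 0.69, adjusted p = 0.116), but 369 CPM in replicate 3, within the range of pH 7.4 (log2 fold change -1.01 with it). Replicate 5 at pH 7.4 was the lowest of its group for Mki67, Cdk1, Top2a and Ccnb1, and also for Nusap1 and Plk1. The count of lower mitosis genes was 35 without that library, 3 and 25 without replicate 1 or 5 at pH 6.9, 8 and 9 without replicate 1 or 3 at pH 7.4, 10 with the block and 12 with replicate 3. The summed level of the 80 genes overlapped, with 13490 and 18860 CPM in replicates 1 and 5 at pH 6.9 and 38330 CPM in replicate 3, against 21410, 22350 and 15170 CPM at pH 7.4.

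**Figure D2:**
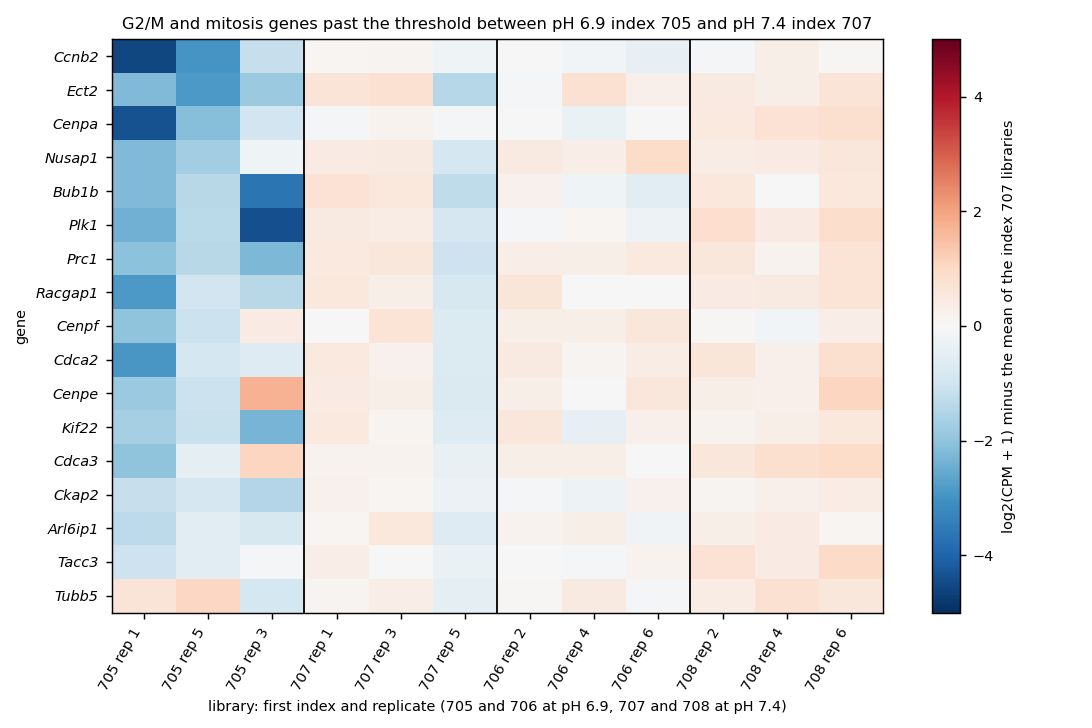
Level of the G2/M and mitosis genes that passed the threshold in each library, as log2(CPM + 1) minus the mean of the 3 libraries at pH 7.4 index 707 (blue lower, red higher). Replicates 1 and 5 of index 705 are blue for every gene but Tubb5, and the libraries of index 706, at the same pH, lie near those of index 707.

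The counts of replication genes that passed depended on single libraries. Of 70 genes of DNA replication and S phase 8 were higher (11.4%, against 4.93% of all genes), with a median of 0.01. Lower were 3 (4.29%), no more than the 5.64% of all genes. The counts were 0 to 5 higher and 0 to 10 lower when a pH 7.4 library was left out, the 10 without pH 7.4 replicate 5. With replicate 3, 7 were higher and none was lower, and with the block 3 were higher and none was lower. Dut, which keeps uracil out of DNA, had 366 and 469.9 CPM in replicates 1 and 5 at pH 6.9 and 965 CPM in replicate 3, against 218, 244 and 270.2 CPM at pH 7.4 (log2 fold change 0.78, or 1.26 with replicate 3), and its call did not hold without pH 6.9 replicate 5 (adjusted p = 0.146) or pH 7.4 replicate 1 (0.0556). Cdkn1a (chr17:29090976-29100727 in the GENCODE annotation of GRCm38), which encodes the cell cycle inhibitor p21, had 110.3 and 81.7 CPM in replicates 1 and 5 at pH 6.9 and 155 CPM in replicate 3, against 211, 399 and 229 CPM at pH 7.4. All 3 libraries at pH 6.9 lay below all 3 at pH 7.4, the log2 fold change was -1.56 ± 0.30 (adjusted p = 0.00354), and without pH 6.9 replicate 5 the adjusted p was at the threshold (0.05). Of 35 p53 targets 7 were lower (20%) and none was higher, with a median of -0.2. That count was 2, 2 and 3 without pH 6.9 replicate 1, pH 6.9 replicate 5 and pH 7.4 replicate 1, 3 with the block and 3 with replicate 3.

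Of the polyamine pathway, the enzymes that make putrescine and spermidine were higher at pH 6.9, and Oat was lower. Srm (chr4:148591503-148594993), spermidine synthase, had 732 and 779 CPM in replicates 1 and 5 at pH 6.9 and 703 CPM in replicate 3, against 319, 272 and 262 CPM at pH 7.4 (log2 fold change 1.41 ± 0.23, adjusted p = 0.00147). Odc1, ornithine decarboxylase, had 526 and 644 CPM at pH 6.9 and 541 CPM in replicate 3, against 371, 298 and 324 CPM at pH 7.4 (log2 fold change 0.82 ± 0.17, adjusted p = 0.00683). The groups did not overlap for either gene, and without pH 6.9 replicate 5 the adjusted p of Odc1 was 0.0833. Oat, which can make ornithine or use it up, had 113 and 97.1 CPM in replicates 1 and 5 at pH 6.9, against 172, 148 and 170.5 CPM at pH 7.4 (log2 fold change -0.64 ± 0.20, adjusted p = 0.0435), but 435 CPM in replicate 3. With that library the change was 0.35 (adjusted p = 0.631), and the adjusted p was 0.0515 to 0.248 when a library was left out and 0.0594 with the block.

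Of 8 polyamine synthesis genes tested, 2 were thus higher and 1 was lower, with a median of 0.01, and with replicate 3 these were 2 and none. Amd1, which makes the aminopropyl donor, averaged 206 ± 31.6 CPM at pH 6.9 and 201 ± 48.8 CPM at pH 7.4 (SD, n = 2 and 3), a log2 fold change of 0.03 ± 0.27. Sms, spermine synthase, had a change of 0.18 ± 0.34. Azin1, which protects ornithine decarboxylase from its antizyme, had 0.21 ± 0.28, and the antizyme gene Oaz1 had -0.02 ± 0.19. None of these 4 passed, with adjusted p values of 0.693 to 0.965. In replicate 3, Amd1 was at 9.97 CPM and Azin1 at 15.4 CPM, below the other libraries, while with it the changes of Sms and Oaz1 were 0.05 and 0.05.

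Of 12 genes of polyamine breakdown, antizymes and transport none passed in edgeR's test with 15 or with 16 libraries, 3 had an unadjusted p under 0.05 with 15, and the median was -0.48. By limma-voom none passed, and by DESeq2 Slc18b1, a vesicle polyamine transporter named here after its values were seen, was lower (log2 fold change -2.07, adjusted p = 0.0397). Sat1, which acetylates spermidine and spermine for export, had 171 and 85.3 CPM in replicates 1 and 5 at pH 6.9 and 306 CPM in replicate 3, against 169, 154 and 320.4 CPM at pH 7.4 (log2 fold change -0.76 ± 0.33, adjusted p = 0.147). Smox, spermine oxidase, averaged 21.6 ± 3.78 CPM at pH 6.9 and 25.4 ± 7.7 CPM at pH 7.4 (adjusted p = 0.763), and was at 6.34 CPM in replicate 3. Eif5a (chr11:69916714-69921958) had 4262 and 4681 CPM in replicates 1 and 5 at pH 6.9, against 2228, 2210 and 2455 CPM at pH 7.4, a log2 fold change of 0.96 ± 0.17 (adjusted p = 0.00244). Replicate 3 held 234 CPM of Eif5a, far below every other library, and with it the change did not pass (adjusted p = 0.704). The enzymes that make hypusine did not pass. Dhps averaged 38.7 ± 4.45 CPM at pH 6.9 and 39.4 ± 7.7 CPM at pH 7.4, and Dohh averaged 50.4 ± 16.6 and 51.3 ± 5.72 CPM, with 46.2 CPM of Dhps and 5.44 CPM of Dohh in replicate 3.

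**Figure D3:**
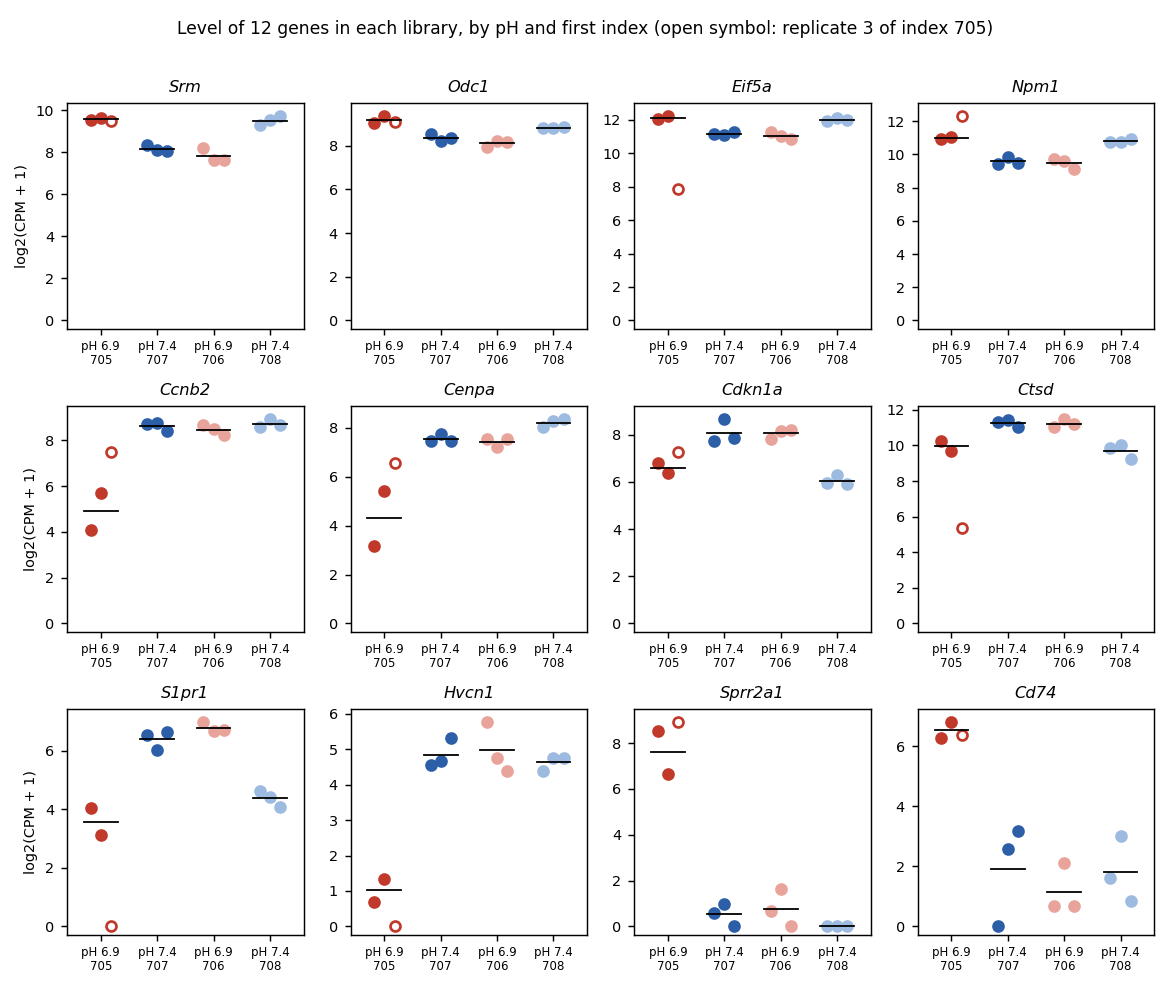
Level of 12 genes, as log2(CPM + 1), in each library cultured for 48 h, by pH and first index. Points are libraries, lines are means, and the open symbol is replicate 3 of pH 6.9 index 705, which is outside the mean. It lies near the other pH 6.9 libraries for Srm and Odc1 and far below them for Eif5a and Ctsd.

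Some genes of lysosomes, which digest cell material at low pH, were lower at pH 6.9. Of 55 tested 13 were lower (23.6%) and 1 was higher, with a median log2 fold change of -0.63, and of 42 autophagy genes 5 were lower and none was higher (median -0.54). Grn, progranulin, a lysosomal protein precursor, had 88.5 and 73.4 CPM in replicates 1 and 5 at pH 6.9 and 14.5 CPM in replicate 3, against 231, 191 and 216 CPM at pH 7.4 (log2 fold change -1.40 ± 0.21, adjusted p = 0.000805). Ctsd, the protease cathepsin D, had 1215 and 828 CPM at pH 6.9, against 2537, 2729 and 2061 CPM at pH 7.4. Replicate 3 had 39.9 CPM of Ctsd, and the change of -1.26 became -1.82 and did not pass with it (adjusted p = 0.1). Sqstm1, the autophagy receptor p62, was lower by 1.34 on the log2 scale, with 114 CPM in replicate 3, against 592, 524 and 448 CPM at pH 7.4, and with an adjusted p of 0.0509 without pH 6.9 replicate 5. The lysosome gene that was higher was Cd68, a membrane glycoprotein best known from macrophages, with 215 and 133 CPM in replicates 1 and 5 at pH 6.9 and 214 CPM in replicate 3, against 16.7, 28.1 and 31.5 CPM at pH 7.4 (adjusted p = 0.0627 without pH 6.9 replicate 1). The lower lysosome count was 6, 7 and 8 without pH 6.9 replicate 1, pH 6.9 replicate 5 and pH 7.4 replicate 3, and 4 with replicate 3. The autophagy count was 3, 2 and 3 without pH 6.9 replicate 1, pH 6.9 replicate 5 and pH 7.4 replicate 1, and 2 with replicate 3.

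Redox genes split. Of 33 NRF2 targets and redox genes 5 were higher and 4 were lower, with a median of 0.03, and the higher count was 2 without pH 6.9 replicate 1 and 3 without pH 7.4 replicate 1 or 3 or with the block. With replicate 3 at pH 6.9, 4 were higher and 2 were lower. Gclc, the catalytic subunit of the enzyme that starts glutathione synthesis, had 125 and 127 CPM in replicates 1 and 5 at pH 6.9 and 35.4 CPM in replicate 3, against 699, 431 and 275 CPM at pH 7.4 (log2 fold change -1.90 ± 0.33, adjusted p = 0.00267). Its partner subunit Gclm was lower by 1.07, but replicate 3 had 3912 CPM, above all pH 7.4 libraries, and with it Gclm did not pass (adjusted p = 0.312). Catalase, Cat, averaged 186 ± 52.4 CPM at pH 6.9 and 530 ± 59.4 CPM at pH 7.4 (SD, n = 2 and 3; log2 fold change -1.50 ± 0.23), and was at 18.1 CPM in replicate 3. Of 12 ferritin and iron uptake genes 3 were lower and none was higher, with 1 lower without pH 6.9 replicate 1 and 3 with replicate 3. Among them Ncoa4, the receptor that delivers ferritin to lysosomes, had 171 and 206 CPM in replicates 1 and 5 at pH 6.9 and 92.5 CPM in replicate 3, against 534, 455 and 514 CPM at pH 7.4 (log2 fold change -1.41 ± 0.22).

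Of 18 genes of acid-base and lactate transport 3 were lower at pH 6.9 and none was higher (median -0.7), with 1 lower under the block or with replicate 3. Hvcn1 (chr5:122206804-122242297), the voltage-gated proton channel that lets protons leave the cell, had 0.623 and 1.53 CPM in replicates 1 and 5 at pH 6.9 and 0 CPM in replicate 3, against 22.5, 24.7 and 39 CPM at pH 7.4. The pH 6.9 libraries lay near the level of a few counts, and the log2 fold change was -4.46 ± 0.78 (adjusted p = 0.00213), or -5.45 without pH 6.9 replicate 5. Car2, carbonic anhydrase, had 866 and 496 CPM at pH 6.9, against 1465, 1135 and 2515 CPM at pH 7.4, and Car9, a membrane carbonic anhydrase, had 16.2 and 15.9 CPM, against 27, 57.9 and 31.1 CPM. Replicate 3, with 1214 CPM of Car2 and 41.7 CPM of Car9, was within the range of pH 7.4 for both. The adjusted p of Car2 was 0.216 without pH 6.9 replicate 5, 0.0527 and 0.068 without pH 7.4 replicates 1 and 5, 0.106 with the block and 0.0926 with replicate 3. That of Car9 was 0.14 and 0.158 without pH 6.9 replicates 1 and 5, 0.145 without pH 7.4 replicate 3, 0.147 with the block and 0.3 with replicate 3. The lactate carrier Slc16a1 had 93.5 and 152 CPM at pH 6.9 and 51.7 CPM in replicate 3, against 156, 82.9 and 61 CPM at pH 7.4, and did not pass.

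Several of the largest changes were in genes best known from other tissues. The list of epithelial-type genes had been put together with earlier results of these data known, so that its direction is no independent evidence; 8 of 18 tested were higher and none was lower (44.4%, median 1.55). Sprr2a1, a cornified envelope protein of skin, had 365 and 101 CPM in replicates 1 and 5 at pH 6.9 and 479 CPM in replicate 3, against 0.49, 0.987 and 0 CPM at pH 7.4. Tm4sf1, a surface protein of epithelial and endothelial cells, had 214 and 74.4 CPM at pH 6.9 and 244 CPM in replicate 3, against 11.8, 11.4 and 6.77 CPM at pH 7.4. Every pH 6.9 library was far above every pH 7.4 library for both, by 8.42 ± 0.86 and 3.83 ± 0.64 on the log2 scale, or 7.29 and 2.90 without pH 6.9 replicate 1. The change of Sprr2a1 was 9.08 without pH 6.9 replicate 5 and 9.82 without pH 7.4 replicate 3. Sprr2a1 belongs to a family of close copies, and its count is uncertain.

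Uchl1, a deubiquitinase of neurons, had 36.8 and 33.2 CPM in replicates 1 and 5 at pH 6.9 and 44.4 CPM in replicate 3, against 1.47, 5.92 and 1.99 CPM at pH 7.4 (log2 fold change 3.34 ± 0.63; 4.29 without pH 7.4 replicate 3 and 4.11 with the block). Epcam, an epithelial adhesion molecule, had 28.7 and 13.7 CPM at pH 6.9 and 22.7 CPM in replicate 3, against 1.47, 0 and 0 CPM at pH 7.4 (log2 fold change 5.88 ± 1.17; 5.27 without pH 6.9 replicate 1, 9.42 and 4.87 without pH 7.4 replicates 1 and 3). Plscr2, a phospholipid scramblase, was at 736 and 452 CPM and 1674 CPM in the same pH 6.9 libraries, against 14.7, 125 and 32.7 CPM at pH 7.4. Its change was 3.31, and it was 4.62 without pH 7.4 replicate 3, 4.46 with the block and 3.98 with replicate 3, while the call did not hold without pH 6.9 replicate 1 (adjusted p = 0.0974). The epithelial-type count was 4 when pH 6.9 replicate 1 was omitted and 6 when pH 7.4 replicate 1 was, and it was 9 with replicate 3. The summed level of 7 endothelial and stromal markers was 54.2 and 9.06 CPM in replicates 1 and 5 at pH 6.9. It was 12.7 CPM in replicate 3 and 15.7 to 20.3 CPM at pH 7.4. Emcn made up most of each sum, with 45.5 and 8.36 CPM in replicates 1 and 5 at pH 6.9. It had 12.7 CPM in replicate 3, and 13.7, 9.87 and 19.9 CPM at pH 7.4. Cxcl12 and Pdgfra, genes of stromal cells, were at 0 in replicates 1 and 5 at pH 6.9 and in all libraries at pH 7.4.

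MHC class II genes, which present peptides to T cells, were higher in 4 of 10 tested with none lower (median 1.35), and also in 4 with replicate 3. Cd74, the invariant chain, had 76.6 and 110.1 CPM in replicates 1 and 5 at pH 6.9 and 81.6 CPM in replicate 3, against 0, 4.93 and 7.97 CPM at pH 7.4 (log2 fold change 4.37 ± 0.98). H2-Aa, an alpha chain, had 9.97 and 39.4 CPM at pH 6.9 and 31.7 CPM in replicate 3, against 1.47, 0 and 0 CPM at pH 7.4, and H2-Ab1, a beta chain, had 39.9 and 118 CPM and 58.9 CPM, against 24, 7.33 and 19.5 CPM. Each gene was higher in every pH 6.9 library than in every pH 7.4 library. H2-Eb1, another beta chain, had 1.25 and 20.2 CPM in replicates 1 and 5 at pH 6.9 and 5.44 CPM in replicate 3, against 0.98, 0.282 and 0.399 CPM at pH 7.4. These 4 genes are also the markers used for antigen-presenting cells, with a summed level of 127.7 and 287.2 CPM in replicates 1 and 5 at pH 6.9 and 177.7 CPM in replicate 3, against 12.6 to 27.9 CPM at pH 7.4. What other cells may have added to these levels was not tested. All 4 calls rested on pH 6.9 replicate 5: without it the adjusted p was 0.0679 for Cd74, 0.115 for H2-Aa, 0.215 for H2-Ab1 and 0.715 for H2-Eb1, and the changes of the last 3 were 4.71, 1.27 and 1.27. Without pH 7.4 replicate 3 the adjusted p was 0.0507 for Cd74 and 0.0803 for H2-Eb1, and with the block H2-Eb1 was at 3.45 (adjusted p = 0.162). The fitted change of H2-Aa was 6.14, and it was 6.82 without pH 6.9 replicate 1, 9.69 and 5.14 without pH 7.4 replicates 1 and 3, and 5.41 with the block, while that of H2-Eb1 was 4.43, or 5.31 without pH 6.9 replicate 1.

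Genes of MHC class I and peptide loading split: of 16 tested 4 were higher and 2 were lower, with a median of 0.57. With replicate 3 at pH 6.9, 2 were higher and 1 was lower. Among the higher ones, H2-Q7 had 221 and 279 CPM in replicates 1 and 5 at pH 6.9 and 654 CPM in replicate 3. At pH 7.4 it had 51, 75.4 and 133 CPM. H2-Q6 had 99.7, 152 and 45.3 CPM in the same pH 6.9 libraries, against 31.4, 62.7 and 40.6 CPM at pH 7.4. Both rose, by 1.53 and 1.48 on the log2 scale, and neither call held without pH 6.9 replicate 5 (adjusted p = 0.0546 and 0.109). H2-Q6 also did not pass with replicate 3 (0.107). These genes are near-identical copies of each other, so how reads were divided between them is uncertain. The same holds for H2ac18, a histone H2A gene with close copies, at 49.2 and 32 CPM and 190.4 CPM at pH 6.9, against 5.39, 8.32 and 10.8 CPM at pH 7.4 (log2 fold change 2.30, or 3.40 with replicate 3). Its call did not hold without pH 6.9 replicate 1 (adjusted p = 0.118) or pH 7.4 replicate 1 (0.0574).

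Some genes had counts in one group and none in the other. Bmp4 (chr14:46383520-46390669), a secreted ligand of the BMP pathway, had 84.7 and 16.4 CPM in replicates 1 and 5 at pH 6.9 and 20.9 CPM in replicate 3, and no count in the 3 libraries at pH 7.4. Its receptor gene Bmpr1a had 11.8 and 21 CPM and 9.97 CPM at pH 6.9 and no count at pH 7.4, and Mt2, a metallothionein that binds zinc, had 66 and 23.7 CPM and 14.5 CPM at pH 6.9 and no count at pH 7.4. Against a floor of 3 counts over the pH 7.4 group, or 0.258 CPM, Bmp4 was at least 196-fold higher, Mt2 at least 174-fold and Bmpr1a at least 63.8-fold. The bounds for Bmp4 and Mt2 rested on replicate 1 at pH 6.9 and were 63.8-fold and 92.0-fold without it, and that for Bmp4 was 329-fold without replicate 5 at pH 6.9. Without replicate 3 at pH 7.4, the deepest library of that group, the bounds were 76.7-fold for Bmp4, 68.0-fold for Mt2 and 24.9-fold for Bmpr1a. Cyp7b1, an oxysterol hydroxylase, had 21.8 and 21.9 CPM and 28.1 CPM at pH 6.9, against 0.49, 0 and 1.2 CPM at pH 7.4 (log2 fold change 5.53; 4.60 and 7.09 without pH 7.4 replicates 3 and 5).

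In the other direction, Npy, the neuropeptide Y precursor, had no count in replicates 1 and 5 at pH 6.9 and 1.81 CPM in replicate 3, against 19.6, 20.7 and 43.8 CPM at pH 7.4. Fstl3, a secreted binder of activins, had no count in any of the 3 libraries at pH 6.9, against 20.6, 18.6 and 19.9 CPM at pH 7.4. Over replicates 1 and 5 and a floor of 0.342 CPM these were at least 82.1-fold lower and at least 57.7-fold lower, and without replicate 5 at pH 6.9 the bounds were 15-fold and 10.5-fold. The fitted change of Npy with replicate 3 was -6.52. Lpcat2, an enzyme that makes platelet-activating factor, had 0 and 1.39 CPM in replicates 1 and 5 at pH 6.9 and 0 CPM in replicate 3, against 218, 96.3 and 173 CPM at pH 7.4 (log2 fold change -7.19 ± 0.72, adjusted p = 7.77e-05). Tmem119, a membrane protein known from microglia and bone cells, had 3.12 and 0.279 CPM and 0.906 CPM at pH 6.9, against 99, 169 and 98 CPM at pH 7.4 (log2 fold change -7.01; -8.62 and -5.29 without pH 6.9 replicates 1 and 5). For all 4 genes the pH 6.9 libraries were at or near 0 and the pH 7.4 libraries were not. Without pH 6.9 replicate 5 the fitted change of Lpcat2 was -12.25, which depends on the prior count.

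Siglecf, a sialic acid receptor of eosinophils, had 0 and 2.51 CPM in replicates 1 and 5 at pH 6.9 and 0 CPM in replicate 3, against 70.6, 24.9 and 71.3 CPM at pH 7.4 (log2 fold change -4.93 ± 0.80; -10.69 without pH 6.9 replicate 5, where it depends on the prior count). Itgae, an integrin of mucosal lymphocytes, had 3.12 and 2.51 CPM and 0 CPM at pH 6.9, against 82.3, 23.1 and 47 CPM at pH 7.4 (log2 fold change -4.20 ± 0.65). Soat1, which stores cholesterol as esters, had 33 and 58.7 CPM and 29 CPM at pH 6.9, against 414, 224 and 218 CPM at pH 7.4 (log2 fold change -2.60 ± 0.33). Wdfy1, an endosomal protein, had 13.1 and 5.3 CPM and 5.44 CPM at pH 6.9, against 177, 151 and 142 CPM at pH 7.4. For these 4 genes all pH 6.9 libraries lay below all pH 7.4 libraries, and Wdfy1 changed by -4.28 ± 0.35 on the log2 scale (adjusted p = 2.34e-06), or -4.86 and -3.58 without pH 6.9 replicates 1 and 5.

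Some receptors for leaving the marrow and homing to it were lower. Of 30 adhesion and homing genes 7 were lower (23.3%) and none was higher, and the count was 5 to 8 when a library was left out and 5 with replicate 3. S1pr1, the sphingosine 1-phosphate receptor that draws blood cells into the circulation, had 15.6 and 7.67 CPM in replicates 1 and 5 at pH 6.9 and 0 CPM in replicate 3, against 93.1, 63.7 and 99.2 CPM at pH 7.4 (log2 fold change -2.97 ± 0.37, adjusted p = 0.000335). Selplg, the ligand of P-selectin, had 225 and 296 CPM and 46.2 CPM at pH 6.9, against 745, 1167 and 834 CPM at pH 7.4 (log2 fold change -1.81). Pecam1, an adhesion molecule of endothelium and platelets, was lower by 1.95, and replicate 3 had 23.6 CPM, against 324, 212 and 223 CPM at pH 7.4. Itgb2, the beta chain of leukocyte integrins, was at 1.25 and 3.35 CPM and 0 CPM at pH 6.9, against 20.6, 26.8 and 24.7 CPM at pH 7.4 (log2 fold change -3.19, or -4.24 without pH 6.9 replicate 5). Cd34, a sialomucin that is low on mouse LT-HSCs, had 733 and 768 CPM and 88.8 CPM at pH 6.9, against 1573, 2097 and 1154 CPM at pH 7.4 (log2 fold change -1.10). Its call did not hold without pH 6.9 replicate 1 (adjusted p = 0.0758) or 5 (0.052) or with replicate 3 (0.0683).

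Of 34 megakaryocyte and platelet genes 6 were lower and 1 was higher, with a median of -1.17. P2rx1, an ATP-gated channel of platelets, had 6.85 and 8.36 CPM in replicates 1 and 5 at pH 6.9 and 10.9 CPM in replicate 3, against 61.3, 39.8 and 65.8 CPM at pH 7.4 (log2 fold change -2.82 ± 0.47). Gata1, the factor of erythroid and megakaryocyte cells, had 3.12 and 2.65 CPM and 0 CPM at pH 6.9, against 133, 11.6 and 155 CPM at pH 7.4, and Pf4, platelet factor 4, had 19.3 and 47.1 CPM and 179 CPM, against 714, 70.1 and 681 CPM. For both genes replicate 3 at pH 7.4 was far below the other libraries at that pH. The summed level of 7 megakaryocyte markers followed this, with 107.8, 96.0 and 183.1 CPM at pH 6.9 (replicates 1, 5 and 3), against 1049, 129.4 and 951.9 CPM at pH 7.4, and what such cells added to the other genes of this list was not tested. Gata1 changed by -5.13 and lost its call without pH 6.9 replicate 1 or 5 (adjusted p = 0.204 and 0.251) or pH 7.4 replicate 1 or 5 (0.0981 and 0.0815), and Pf4 did not pass (adjusted p = 0.267). The lower count was 2, 3 and 3 without pH 6.9 replicate 1, pH 6.9 replicate 5 and pH 7.4 replicate 1, 4 without pH 7.4 replicate 5, 11 without pH 7.4 replicate 3, 12 with the block and 5 with replicate 3 at pH 6.9.

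Of 49 genes of LT-HSC identity 1 was higher (2.04%, against 4.93% of all genes) and 5 were lower (10.2%, against 5.64% of all genes), with a median of -0.02, and with replicate 3 these were 2 and 4. Gata2, a stem cell transcription factor, was among the lower ones, with 71 and 41.5 CPM in replicates 1 and 5 at pH 6.9 and 4.53 CPM in replicate 3, against 279.9, 129 and 109.6 CPM at pH 7.4 (log2 fold change -1.64 ± 0.43). Its call did not hold without pH 6.9 replicate 5 (adjusted p = 0.194) or pH 7.4 replicate 1 (0.0763), and the lower count was 2 without pH 6.9 replicate 1 or pH 7.4 replicate 1 and 3 without pH 6.9 replicate 5. Procr, the surface receptor used to sort LT-HSCs, averaged 37.6 ± 20.01 CPM at pH 6.9 and 17.6 ± 1.73 CPM at pH 7.4 (SD, n = 2 and 3; log2 fold change 1.07 ± 0.54), and did not pass. Replicate 3 had 39.9 CPM of it. Kit, a cytokine receptor, and Hlf and Mecom, transcription factors of stem cells, changed by -0.54, 0.74 and 0.53 on the log2 scale, and none passed (adjusted p = 0.247 to 0.53). In replicate 3 Kit was at 17.2 CPM and Mecom at 7.25 CPM, below the other libraries, and Hlf at 38.1 CPM. Cd48, which LT-HSCs lack, had 4.36 and 41.8 CPM in replicates 1 and 5 at pH 6.9, against 2.94, 4.65 and 0 CPM at pH 7.4 (adjusted p = 0.183). Replicate 3 had 216 CPM of Cd48, and with it the gene was higher (adjusted p = 0.0388).

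Markers of other blood cells differed by library. Those of granulocyte-monocyte progenitors and neutrophils summed to 167.6 and 168.9 CPM in replicates 1 and 5 at pH 6.9 and 1376 CPM in replicate 3. At pH 7.4 they summed to 46.1 to 75.1 CPM. Outside replicate 3, Prtn3 made up most of each sum, with 138 and 156 CPM at pH 6.9, against 32.3, 62.4 and 47 CPM at pH 7.4. Ctsg was also higher in replicates 1 and 5 at pH 6.9, while Mpo and Ms4a3 overlapped with pH 7.4. S100a9 and Camp, which mark neutrophils, were at 0 in replicates 1 and 5 at pH 6.9 and in all libraries at pH 7.4. Markers of monocytes and macrophages summed to 241.7, 166 and 494.9 CPM at pH 6.9 (replicates 1, 5 and 3), against 124 to 274.1 CPM at pH 7.4. Lyz2 made up most of each sum, with 224, 157 and 495 CPM at pH 6.9, against 92.6, 110 and 246 CPM at pH 7.4. Csf1r had 11.2, 8.64 and 0 CPM in the same pH 6.9 libraries, against 30.9, 27.2 and 26.3 CPM at pH 7.4. Adgre1, C1qb and Fcgr1, which mark macrophages, were at 0 in replicates 1 and 5 at pH 6.9 and in all libraries at pH 7.4. Of the 9 and 8 markers 5 and 4 could be tested, and none passed in edgeR's test, adjusted or unadjusted, or by limma-voom. By DESeq2 1 passed, Elane, a neutrophil protease with 0.623 and 0 CPM in replicates 1 and 5 at pH 6.9 and 30.8 CPM in replicate 3, and no count at pH 7.4, so that its call rests on counts near 0.

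The other contrast of the same pH values, index 706 against 708, shares no library with this one, and the difference between the contrasts was tested in the same fit. It passed for 1934 of 11226 genes (17.2%), 955 more positive in the contrast of 705 with 707 (8.51%) and 979 more negative (8.72%). With replicate 3 it passed for 934 genes. In the contrast of 706 with 708, 700 genes passed (6.24%), 301 higher (2.68%) and 399 lower (3.55%). Of these, 301 also passed for 705 against 707, which is 25.4% of the calls of 705 against 707 and 43% of those of 706 against 708. Of the 301, 299 had opposite signs, and the 2 with the same sign were H2-Q6 and H2ac18.

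The groups of genes described above parted in how their levels stood in the other cultures. For many, the pH 6.9 libraries of index 706 were close to the pH 7.4 libraries of index 707, and those of index 708 to index 705. Npm1 averaged 2054 CPM at pH 6.9 index 705 and 776 CPM at pH 7.4 index 707, and it averaged 718 CPM at pH 6.9 index 706 and 1809 CPM at pH 7.4 index 708. Cdkn1a stood the other way, with 96 and 279.9 CPM for 705 and 707 and 268 and 65.8 CPM for 706 and 708, as did Ctsd, with 1022 and 2442 CPM and then 2405 and 858 CPM. The differences between the contrasts were 2.74, -3.59 and -2.75 on the log2 scale (adjusted p = 1.54e-05, 1.55e-05 and 1.72e-05). Of the ribosome biogenesis list, 46 of 80 genes had a positive difference past the threshold and none a negative one.

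For other genes index 705 alone stood apart from the 3 other cultured groups. Ccnb2 averaged 33.8 CPM at pH 6.9 index 705 and 401 CPM at pH 7.4 index 707, against 355 CPM at pH 6.9 index 706 and 426 CPM at pH 7.4 index 708, and the contrasts differed by -3.21 (adjusted p = 0.000126). Hvcn1 averaged 1.08 and 28.8 CPM for 705 and 707, against 33.1 and 24 CPM for 706 and 708 (difference -4.90, adjusted p = 0.00121). Wdfy1 averaged 9.19 and 156 CPM, against 140.4 and 100.2 CPM (difference -4.77, adjusted p = 3.59e-06). Tm4sf1 averaged 144 and 9.98 CPM, against 18 and 8.26 CPM (difference 2.74, adjusted p = 0.0372). Of the mitosis list, 7 of 80 genes had a negative difference past the threshold and 2 a positive one. The negative count was close to the share of all genes, 8.72%, and the positive count was under theirs, 8.51%. Most of the 16 lower genes were thus not shown to differ between the contrasts. Among the genes whose difference did not pass were Uchl1 (0.0762), Plscr2 (0.0912) and Plk1 (0.152). Also among them were Cyp7b1 (0.148) and Sprr2a1 (0.931), which had no count at index 708.

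**Figure D4:**
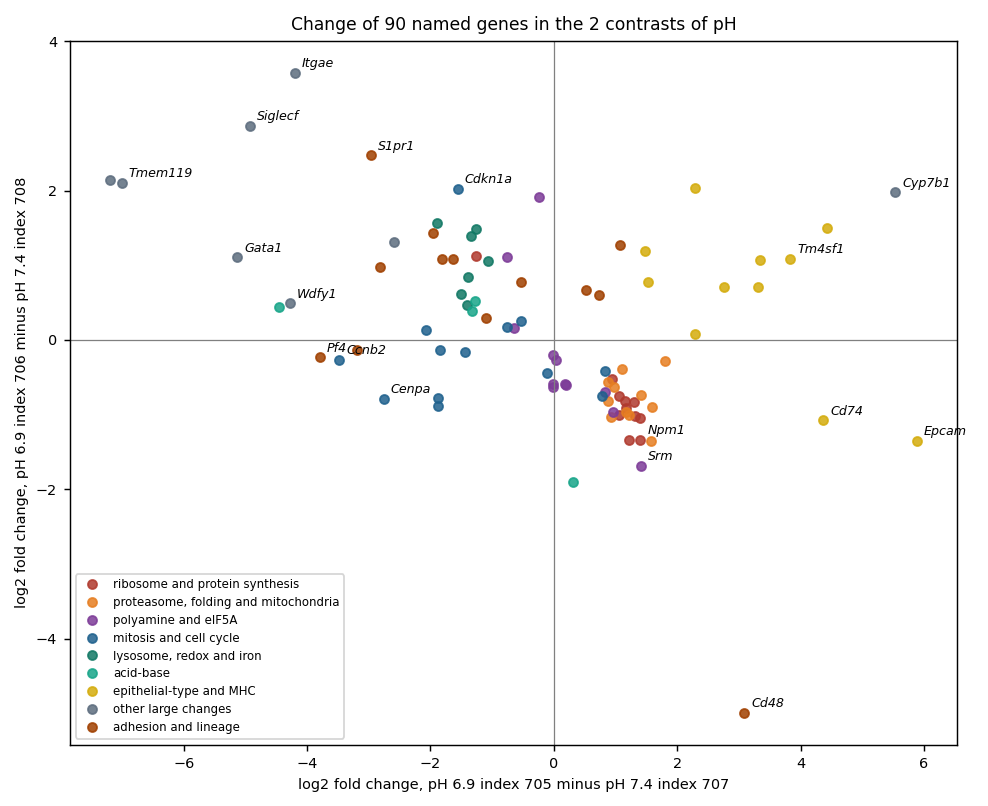
Log2 fold change of the 90 described genes with a count in each of the 4 cultured groups, pH 6.9 index 705 against pH 7.4 index 707 (horizontal) and pH 6.9 index 706 against pH 7.4 index 708 (vertical). Points are genes, coloured by group. Ribosome, proteasome and mitochondrial genes lie at the lower right and lysosome and redox genes at the upper left, while Ccnb2, Wdfy1 and the epithelial-type genes spread mainly along the horizontal axis.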

How the data were processed

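RNA of 100 sorted cells per library was amplified with SMART-Seq v4 and made into Nextera XT libraries, which do not record the strand, for paired-end sequencing with 75 bp reads, per the labels' protocols. Reads were quantified with kallisto on mm10, per the submitters' processing notes, and the authors deposited expected or estimated counts per gene symbol, all whole numbers. The kallisto version, the annotation, and how transcripts were summed and rounded are not given in the sources used here. It lists 21003 symbols, and 15842 of them had a count.

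Low genes were dropped with filterByExpr, TMM set the scale, and robust quasi-likelihood tests of edgeR 4.0.16 (R 4.3.3) were run with 1 coefficient per group of pH, culture and first index. The 15 libraries with at least 100000 counts and 10000 genes detected entered the fit, which left out pH 6.9 index 705 replicate 3 and 2 fresh libraries. Adjusted p values are Benjamini-Hochberg over all genes tested, with a threshold of 0.05. The SE of a log2 fold change is its absolute value divided by the square root of the test's F. It is approximate, above all for genes with counts near 0. Promoters came from RefSeq (GRCm38.p6) and gene coordinates from GENCODE M21. Alternatives were 16 other settings: other sets of libraries, each library of the comparison left out, DESeq2 1.42.0, its size factors, limma-voom 3.58.1, filters, a minimum fold of 1.5 and the mouse number as a block. In simulated counts with the 15 libraries (10948 genes), 72% of genes changed 4-fold and 10% of those changed 2-fold were recovered, with 5 false calls. With 16 libraries (10901 genes) these were 44% and 4%, with 2 false calls.

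The design text names 6 individual mice, so that the numbers were taken to pair the libraries. Deviations of libraries with the same number correlated across genes at 0.0609 (1), -0.0357 (3) and -0.156 (5). The named genes were up to 12 per direction with the largest change among those past the threshold with a mean of at least 20 CPM and no overlap, up to 3 per direction and list with the smallest p, a fixed list, genes past the threshold in both contrasts with the same sign, and up to 6 per direction with the smallest p when replicate 3 was included. Of these 212 genes 92 are described, and Plk1, Kif22, Prc1, Plscr2 and H2-Eb1 were added after their values were seen. Lists, members and comparisons were chosen with earlier results of these data known. Libraries were amplified without molecular identifiers, so floors of 3 counts cover counting error only.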

Additional observations from a re-analysis of the deposited data

Results flagged for a closer look

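The change between pH 6.9 and pH 7.4 differed between the contrast of index 705 with 707 and that of index 706 with 708 for 1934 genes, by edgeR's test of the difference itself. Among the 97 genes described it differed for 72, 36 with a positive and 36 with a negative difference, with a largest adjusted p of 0.0399. Values below are the log2 change of 705 against 707 minus that of 706 against 708.

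Of ribosome and translation genes the difference was 2.74 for Npm1, 2.07 for Ncl, 2.45 for Nhp2, 2.33 for Nip7, 1.47 for Rpl7, 1.98 for Rpl29, 2.13 for Eef1d, 1.81 for Eif4a1, 2.56 for Mrpl12 and 2.09 for Mrpl20, and -2.38 for Eef2k. For proteasome and folding genes it was 1.49 for Psmc5, 1.61 for Psmb7, 1.44 for Psmd6, 1.69 for Cct5 and 2.93 for Hspe1. For mitochondrial and nucleotide enzymes it was 2.13 for Cycs, 1.95 for Mdh2, 2.22 for Nme1, 2.15 for Aprt, 2.49 for Ppa1 and 2.09 for Hsd17b10. All but Eef2k, which slows elongation, were positive.

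In the polyamine pathway the difference was 3.09 for Srm, 1.52 for Odc1 and 1.92 for Eif5a, and -0.81 for Oat, -1.86 for Sat1 and -2.16 for Smox. Srm, Odc1 and Eif5a were thus positive, and Oat, Sat1 and Smox negative. Of the 8 polyamine synthesis genes tested, 2 had a positive difference past the threshold and 1 a negative one. Sat1 and Smox did not pass in the main contrast itself (log2 change -0.76 and -0.24, adjusted p = 0.147 and 0.763 by edgeR). In the other contrast they were higher at the lower pH, by 1.11 and 1.92. Of cell cycle genes it was -3.21 for Ccnb2, -1.97 for Cenpa, -2.20 for Nusap1, -1.28 for Kif22, -1.71 for Prc1 and -3.59 for Cdkn1a, and 1.24 for Tubb5 and 1.53 for Dut.

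Lysosome, redox and iron genes had -2.24 for Grn, -2.75 for Ctsd, -2.73 for Sqstm1, -2.12 for Cat, -3.47 for Gclc, -2.12 for Gclm and -1.87 for Ncoa4. Acid-base genes had -4.90 for Hvcn1, -1.71 for Car2 and -1.81 for Car9, and the lactate carrier Slc16a1 had 2.22. Epithelial-type and MHC class II genes had 2.74 for Tm4sf1, 7.23 for Epcam, 2.21 for H2-Ab1 and 5.45 for Cd74.

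Genes of adhesion and blood lineages had -5.45 for S1pr1, -2.90 for Selplg, -3.38 for Pecam1, -3.06 for Itgb2, -3.80 for P2rx1, -1.39 for Cd34 and -2.73 for Gata2, and 8.07 for Cd48. Further large changes had -9.34 for Lpcat2, -9.11 for Tmem119, -6.24 for Gata1, -7.80 for Siglecf, -7.78 for Itgae, -4.77 for Wdfy1 and -3.91 for Soat1. For H2-Aa (10.68), Bmp4 (9.08), Bmpr1a (10.52), Mt2 (13.64), Npy (-14.04) and Fstl3 (-13.70) a group had no count, so that the size of the fitted difference depends on the prior count.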

How the results depend on the processing

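The 1187 genes of index 705 against 707 were 473 to 1336 when 1 library was left out, 785 with the mouse number as a replicate block, 468 in a fit of only the 5 libraries without pH 6.9 replicate 3, 237 against a minimum fold of 1.5, 58 with all 18 libraries and, by edgeR, 0 with only the 3 libraries of each group (1164 at an unadjusted p under 0.05; no other tool was run on these). With DESeq2 the count was 1668, with limma-voom 1136, without the filter 1620, with a stricter filter 1189 and with DESeq2 size factors 1180. The 1934 genes whose change differs between the contrasts were 1368 to 2016 when 1 library was left out, 1614 with the block, 934 with replicate 3, 159 with all 18 libraries and 1073 against a minimum fold of 1.5. Oat reversed, with 0.35 with replicate 3, 0.39 with all 18 libraries and 0.38 with only the 3 libraries of each group, and the cause was not tested. Of the 78 described genes that passed, 4 lost the call under the block, 12 with replicate 3, 26 against the minimum fold and 0 with DESeq2. Apart from Oat, 54 of them lost the call with all 18 libraries and 76 with only the 3 libraries of each group. Depth limits genes near 0: a floor of 3 counts was 1.87 and 0.418 CPM in replicates 1 and 5 at pH 6.9 and 2.72 CPM in replicate 3, against 1.47, 0.423 and 1.2 CPM at pH 7.4. With 2 libraries at pH 6.9, genes that did not pass are not shown to be alike between the groups.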

Other observations

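Some genes of energy metabolism passed as well. Of 27 genes of the TCA cycle 4 were higher and 4 were lower at pH 6.9 index 705 against pH 7.4 index 707. Each is 14.8%, against 4.93% of all genes higher and 5.64% lower, and the median log2 fold change was -0.03. With replicate 3 at pH 6.9, 3 TCA cycle genes were higher and 2 were lower. Pdk2, a kinase that holds back pyruvate entry into the cycle, had 7.48 and 5.02 CPM in replicates 1 and 5 at pH 6.9, against 33.8, 43.8 and 25.5 CPM at pH 7.4 (log2 fold change -2.52 ± 0.48, adjusted p = 0.00354 by edgeR), while Suclg1, a subunit of succinyl-CoA ligase, was higher by 0.71. Of 29 genes of glycolysis and the pentose phosphate pathway 4 were higher (13.8%) and 1 was lower (3.45%, under the share of all genes), with a median of 0.27. Gapdh and Pgk1, successive enzymes of glycolysis, were higher by 0.66 and 0.78, and Aldoc, an aldolase best known from brain, was lower with 1.25 and 8.78 CPM, against 16.2, 36.6 and 22.7 CPM. With replicate 3 at pH 6.9, none of the glycolysis genes was higher past the threshold. Gpt2, a mitochondrial alanine aminotransferase, changed by -3.49 ± 0.95 (adjusted p = 0.0245). These genes were chosen after their values were seen.

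Some genes of index 705 had levels like those of the fresh libraries with index 701, which were at the other pH and carried the same mouse numbers. The pH 7.4 libraries of index 707 carried these numbers as well, and had 177, 151 and 142 CPM of Wdfy1. Whether the fresh libraries of index 701 and the cultured ones shared mice was not tested. Wdfy1 had 13.1 and 5.3 CPM in replicates 1 and 5 and 5.44 CPM in replicate 3 at pH 6.9 index 705, and 13.7 and 10.9 CPM in fresh cells of index 701. In all other libraries of the fit it had at least 70.2 CPM. Nnt, the mitochondrial transhydrogenase, had 33.6 and 12.7 CPM and 42.6 CPM at pH 6.9 index 705 and 32.4 and 41.9 CPM in fresh cells of index 701, and at least 45.3 CPM in all other libraries of the fit. Entpd4, a Golgi nucleotidase, had 141 and 250.2 CPM in replicates 1 and 5 at pH 6.9 index 705 and 188 and 136 CPM in fresh cells of index 701, and at most 112 CPM in the other libraries of the fit, but 18.1 CPM in replicate 3. These genes were chosen after their values were seen, and no test was made across these libraries.

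Replicate 3 at pH 6.9 index 705 held single genes at levels of no other library. Prmt1, the main arginine methyltransferase, had 1231 CPM there, against 26.8 and 20.6 CPM in replicates 1 and 5 at pH 6.9 and 14.2, 19.2 and 4.38 CPM at pH 7.4. Hnrnpa2b1, an RNA-binding protein, had 10850 CPM, against 1020 and 1541 CPM in replicates 1 and 5 and 1543, 1711 and 1633 CPM at pH 7.4.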
